A study of Mus musculus with 12 samples.

Results

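The members described here are the subunits of the mitochondrial respiratory chain and of ATP synthase, encoded partly in the nucleus and partly in mitochondrial DNA (mtDNA). A gene was a member when its symbol began with Nduf and a subunit letter and number, with Uqcr, with Cox4 to Cox8 or with Atp5, when it was Cyc1 or one of the Sdha to Sdhd genes, or when it was one of the 13 protein genes of mtDNA. This gave 99 of the 22471 features in the deposited tables, 86 of them nuclear and 13 from mtDNA, and the rule reads the symbol alone. By complex, the nuclear members comprised 35 features of complex I, 4 of complex II, 10 of complex III, 19 of complex IV and 15 of complex V. Cox7a2l, a protein linked to both complex III and complex IV, was counted apart. The last 2, Atp5s and Atp5sl, carry a matching symbol but are not subunits of ATP synthase, and their values are given apart. Of the 10 complex III features, 1 is a second feature named Uqcr10 that was assembled from the reads and has no GENCODE record.

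The libraries came from primary hepatocytes, the parenchymal cells of the liver, isolated from male C57BL/6J mice and cultured. The groups were untreated cells (Con), cells given oleic acid bound to albumin (ConOA), cells given benzbromarone, a uricosuric drug (BBR), and cells given both (BBROA), with 3 libraries in each group and no transgene or deletion in any. The sample labels call the material liver and the series' design text speaks of a fatty diet, whereas the study's methods describe cultured cells given oleic acid, which is followed here. The labels do not say whether the 3 libraries of a group came from separate animals or from wells of the same isolate, so the p-values below measure only the spread between these libraries. RNA was selected by its poly(A) tail and sequenced, and the libraries held 15485498 to 23668371 estimated counts each.

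Complex I takes electrons from NADH and complex II takes them from succinate in the citric acid cycle, complex III passes them through cytochrome c to complex IV, which reduces oxygen, and complex V uses the resulting proton gradient to make ATP. Complex II is encoded in the nucleus alone, whereas the other complexes combine nuclear and mtDNA subunits, so that transcripts made in separate compartments have to be translated into parts of the same machine. Hepatocytes are rich in mitochondria and burn fatty acids such as oleic acid through this chain. In mtDNA the genes are transcribed together as long precursors that are cut apart, and most of the mRNAs are polyadenylated. Their levels therefore depend on transcription of the whole strand and on the stability of each mRNA.

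Markers of hepatocytes were summed in CPM, the counts scaled to a common library size. The sums were 45071 to 45943 CPM in Con, 48483 to 50410 in ConOA, 44841 to 46555 in BBR and 50597 to 52410 in BBROA. Every library with oleic acid was thus above every library without it. Of the 10 hepatocyte markers 3 were called higher and 4 lower in BBR vs Con, and 4 and 1 in ConOA vs Con. In BBROA vs BBR the calls were 3 and 3, and in BBROA vs ConOA 0 and 1. The shares of all genes called in these comparisons were 27.7, 42.8, 38.9 and 4.59%. Markers of Kupffer cells, the liver macrophages, summed to 84.3 to 105 CPM in Con, 85.8 to 105 CPM in ConOA, 122 to 166 CPM in BBR and 86.5 to 102 CPM in BBROA, so they were higher in all 3 BBR libraries than in any other. Of the 7 Kupffer markers, all detected in every library, only Cd68, a lysosomal protein of macrophages, was called higher in BBR vs Con, from 80.1 to 131 CPM, and only Cd5l was called lower, from 5.98 to 3.71 CPM. Although the sums were alike in Con and ConOA, 2 of the 7 were called higher and 4 lower in ConOA vs Con, 2 and 2 in BBROA vs BBR, and none in BBROA vs ConOA. Cholangiocyte markers summed to 37.4 to 43.6 CPM in Con, 49.8 to 68.9 CPM in ConOA, 59.5 to 69.5 CPM in BBR and 48.4 to 57.5 CPM in BBROA, and all 3 tested were called higher in BBR vs Con. Endothelial markers summed to 66.4 to 85.2 CPM over all 12 libraries, and of 6 tested 3 were called higher in BBR vs Con, 1 was higher in ConOA vs Con, and 3 were higher and 3 lower in BBROA vs BBR. Stellate cell markers summed to 21.6 to 28.6 CPM over all 12 libraries. Of 5 tested 1 was called lower in BBR vs Con, and of 4 tested 1 was called higher and 1 lower in ConOA vs Con. Striated muscle markers summed to 7.63 to 12.2 CPM in Con, 13.2 to 16.3 CPM in ConOA, 10.1 to 15.7 CPM in BBR and 19.4 to 29.1 CPM in BBROA. The 1 muscle marker tested, Acta1, was called higher in ConOA vs Con, BBROA vs ConOA and BBROA vs BBR (0.62, 0.72 and 1.05 on the log2 scale). In these cultures a change in the number of cells of a type cannot be told apart from a change in RNA per cell.

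The mtDNA subunits far outweighed the nuclear ones in these libraries. The 13 mtDNA genes took 5.50 to 6.89% of all counts and the 86 nuclear features 0.795 to 0.853%, over the 12 libraries. mt-Co1, the catalytic subunit of complex IV, alone held 48.7 to 56.2% of the mtDNA counts. Per length, mt-Co1 stood at 18924 length-scaled units (FPKM, fragments per kilobase of transcript and per unit of library size) on average in Con, mt-Co2 at 5433 FPKM, mt-Co3 at 4603 FPKM and mt-Nd3, the lowest, at 347 FPKM. The most abundant nuclear subunits in Con were Atp5b, the catalytic beta subunit of ATP synthase, at 488 FPKM, Cox4i1, a regulatory subunit of complex IV, at 404 FPKM and Cox6a1 at 352 FPKM. Among the nuclear complex I genes, Ndufa6 was the highest at 150 FPKM and Ndufa11 the lowest at 17.1 FPKM in Con.

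Expression of complex IV isoforms followed the forms used outside muscle. Cox4i1, Cox6a1, Cox6b1, Cox7a2 and Cox8a were at 404, 352, 159, 90.5 and 235 FPKM in Con. Their counterparts of heart, muscle, lung or testis were near or at the lower limit of detection: Cox7a1 had 101 counts over all 12 libraries, Cox6a2 had 15, Cox4i2 had 3 and Cox6b2 had 1, while Cox8b, Cox8c and Cox7b2 had 0 counts in every library, which allows up to 3 counts, or 0.127 to 0.194 CPM, in each. These 7 genes did not pass the filter on low counts in the 4 comparisons of groups, which leaves 92 members tested, 79 nuclear and 13 from mtDNA.

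The genes of mtDNA lie so close that some share bases, which limits how far short reads can separate them. mt-Atp8 and mt-Atp6, both of complex V, overlap by 43 bases, mt-Nd4l and mt-Nd4 by 7, and mt-Atp6 and mt-Co3 by 1. The overlap of mt-Nd5 and mt-Nd6, on opposite strands, is 14 bases. The strand setting of the counts is not known, so reads from the opposite strand may enter the level of mt-Nd6. The shared stretch of the complex V pair is shown because the level of mt-Atp8, a very short gene, rests partly on it. In GRCm38.p6 it lies at chrM:7927-7969 on the plus strand, and the capitals mark the start codon of mt-Atp6 and the stop codon of mt-Atp8.
mt-Atp8/mt-Atp6: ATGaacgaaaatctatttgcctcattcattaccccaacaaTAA

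Replicate libraries differed more for mtDNA than for nuclear subunits. The median coefficient of variation within groups was 4.55% over 77 nuclear members with at least 5 CPM, 8.76% over the 13 mtDNA genes and 5.30% over all 9714 genes with at least 5 CPM. mt-Nd4, a membrane subunit of complex I, was at 5546, 4875 and 5416 CPM in Con and at 5846, 4656 and 5150 CPM in BBR. Its lowest library in each of these groups was replicate 2, and the groups overlapped.

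BBR without OA raised 8 subunits, 5 of them of complex IV, and lowered 2. Compared with Con, 10 of the 92 members tested, 10.9%, were called at an adjusted p under 0.05 by edgeR's quasi-likelihood test, against 27.7% of all 12555 genes tested. Among nuclear subunits 4 of 79 were higher and 2 lower, and among mtDNA subunits 4 of 13 were higher and none lower, where 13.2% of all genes were called higher and 14.5% lower. The 2 comparisons of BBR with Con and of BBROA with BBR share the BBR libraries, and BBR vs Con and ConOA vs Con share the Con libraries, so calls in them are not independent of each other. Leaving out Con replicate 3 gave 11 nuclear calls, leaving out BBR replicate 2 gave 3, and leaving out Con replicate 2 reduced the mtDNA calls to 2.

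The largest called change under BBR was in Ndufa4l2, a paralogue of the complex IV subunit Ndufa4 known as a target of hypoxia signalling. It was at 70.6, 87.8 and 85.1 CPM in Con, at 108, 126 and 122 CPM in BBR, at 67.1, 79.1 and 80.7 CPM in ConOA and at 73.2, 83.4 and 81.5 CPM in BBROA. All 3 BBR libraries were above every library of the other groups, which overlapped one another. The rise from Con to BBR was 0.55 ± 0.07 (log2, SE; adjusted p = 2.8e-05), or 46.6%. The summed Kupffer cell markers, through Cd68, were also highest in BBR. The 3 tested cholangiocyte markers and 3 of 6 endothelial markers were called higher than in Con. Of the 10 hepatocyte markers 3 were called higher and 4 lower. The part of these cell type markers in the rise of this and the other members called here was not tested. Stellate cell markers were at 21.7 to 24.3 CPM in BBR and 21.6 to 24.5 CPM in Con, with 1 of 5 tested called lower. Ndufa4 itself was at 130 ± 7.28 CPM in Con and 136 ± 1.41 CPM in BBR (SD, n = 3), a log2 difference of 0.07 with a 95% interval from -0.03 to 0.17.

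All 3 mtDNA subunits of complex IV, which form its catalytic core, rose under BBR. mt-Co1 was at 27358, 28213 and 31110 CPM in Con and at 35543, 35566 and 36048 CPM in BBR, with no overlap and with the BBR libraries close together. Its log2 change was 0.31 ± 0.07 (SE; adjusted p = 0.0019). mt-Co2 rose by 0.21 and mt-Co3 by 0.22 on the log2 scale (adjusted p = 0.016 and 0.014). The fourth mtDNA call was mt-Nd1, a complex I subunit near the quinone site, which was at 2900, 2669 and 3012 CPM in Con and 3610, 3229 and 3383 CPM in BBR and rose by 0.26 ± 0.06 (log2, SE; adjusted p = 0.0041).

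With all libraries in the fit, the BBR values were larger in the first part of mtDNA than in the second. From mt-Nd1 to mt-Co3, the first 7 protein genes in genome order, the log2 values were 0.26, 0.16, 0.31, 0.21, 0.17, 0.14 and 0.22. For the 6 genes from mt-Nd3 to mt-Cytb they were 0.04, 0.03, -0.01, 0.04, 0.01 and 0.00, and none of these was called. Among the first 7, mt-Nd2, mt-Atp8 and mt-Atp6 were not called either. Without BBR replicate 2 the 6 later values, in the same order, were 0.13, 0.15, 0.066, 0.12, 0.094 and 0.087. Without BBR replicate 1 they were -0.073, -0.088, -0.097, -0.025, -0.079 and -0.079. The dividing point was read from the values. The division is a description of 13 genes that share the same libraries and, except for mt-Nd6, the same strand. Within a library the log2 ratio of mt-Co1 to mt-Nd4 averaged 2.45 ± 0.13 in Con, 2.55 ± 0.15 in ConOA, 2.78 ± 0.17 in BBR and 2.46 ± 0.12 in BBROA (SD, n = 3). In BBROA vs ConOA the values did not divide in this way, with mt-Co1 at 0.06, mt-Nd4l highest at 0.25 and mt-Nd6 lowest at 0.02, and no mtDNA gene was called.

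**Figure D1:**
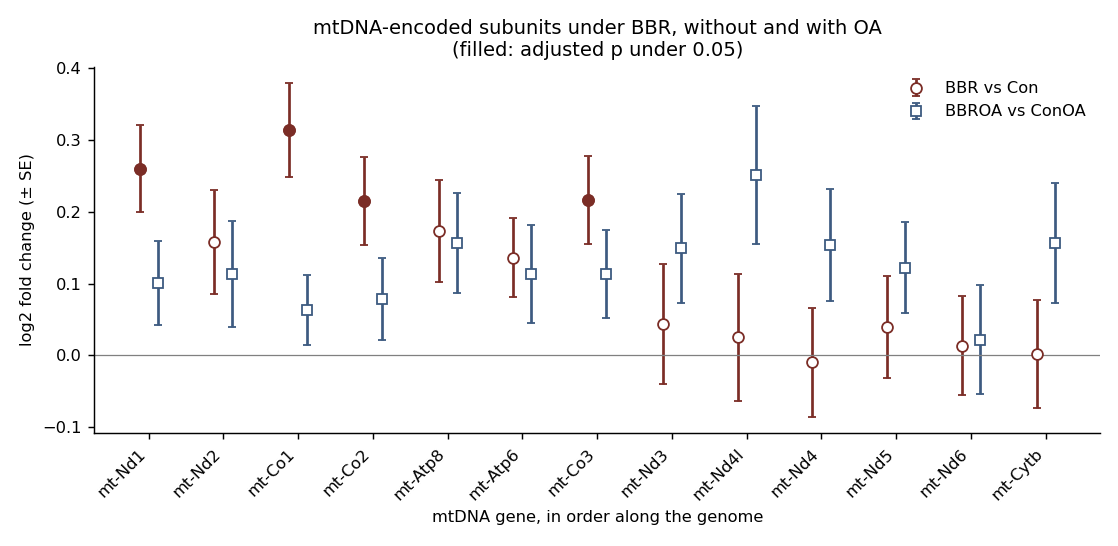
Log2 fold change (± SE) of the 13 mtDNA-encoded subunits, in genome order, in BBR vs Con (circles) and BBROA vs ConOA (squares), 3 libraries per group, with filled symbols for an adjusted p under 0.05. Under BBR without OA the values from mt-Nd1 to mt-Co3 lie between 0.14 and 0.31. Those from mt-Nd3 to mt-Cytb lie near 0, a division that the squares do not show. Without BBR replicate 2 (not drawn) the values from mt-Nd3 to mt-Cytb were 0.066 to 0.15.

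The other nuclear subunits called under BBR moved by less than 0.3 on the log2 scale. Ndufv3, a small subunit of the NADH-binding arm of complex I, was at 34.6, 40.4 and 40.2 CPM in Con and 47.0, 46.5 and 47.1 CPM in BBR, with no overlap (log2 change 0.29 ± 0.06, SE; adjusted p = 0.0023). Uqcrh, the hinge protein of complex III, was at 88.4, 97.3 and 99.9 CPM in Con and 107, 114 and 113 CPM in BBR, again without overlap (0.23 ± 0.05; adjusted p = 0.0032). Cox7c of complex IV rose by 0.19 (adjusted p = 0.020). Sdha, the flavoprotein of complex II that oxidises succinate, fell by 0.13 (adjusted p = 0.036), and Atp5g3, a gene for the c subunit of ATP synthase, fell by 0.15 (adjusted p = 0.028). All 4 complex II genes had values below 0, from -0.13 to -0.05, but only Sdha passed the test, and 11 of the 12 nuclear complex IV genes tested had values above 0, of which 2 passed.

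Per complex, the BBR calls were thinly spread. Of the nuclear subunits, 1 of 35 was called in complex I, 1 of 4 in complex II, 1 of 10 in complex III, 2 of 12 in complex IV and 1 of 15 in complex V. Of 12 subunits taken as reference members of their complexes, only Sdha was called, as lower. Among those not called were Ndufs1 and Ndufv1 of complex I, Sdhb of complex II, Uqcrc1 of complex III, Cox4i1 of complex IV and Atp5b of complex V. Their log2 values were -0.04, -0.13, -0.10, -0.08, 0.00 and -0.03, with 95% intervals that lay between -0.24 and 0.10.

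**Figure D2:**
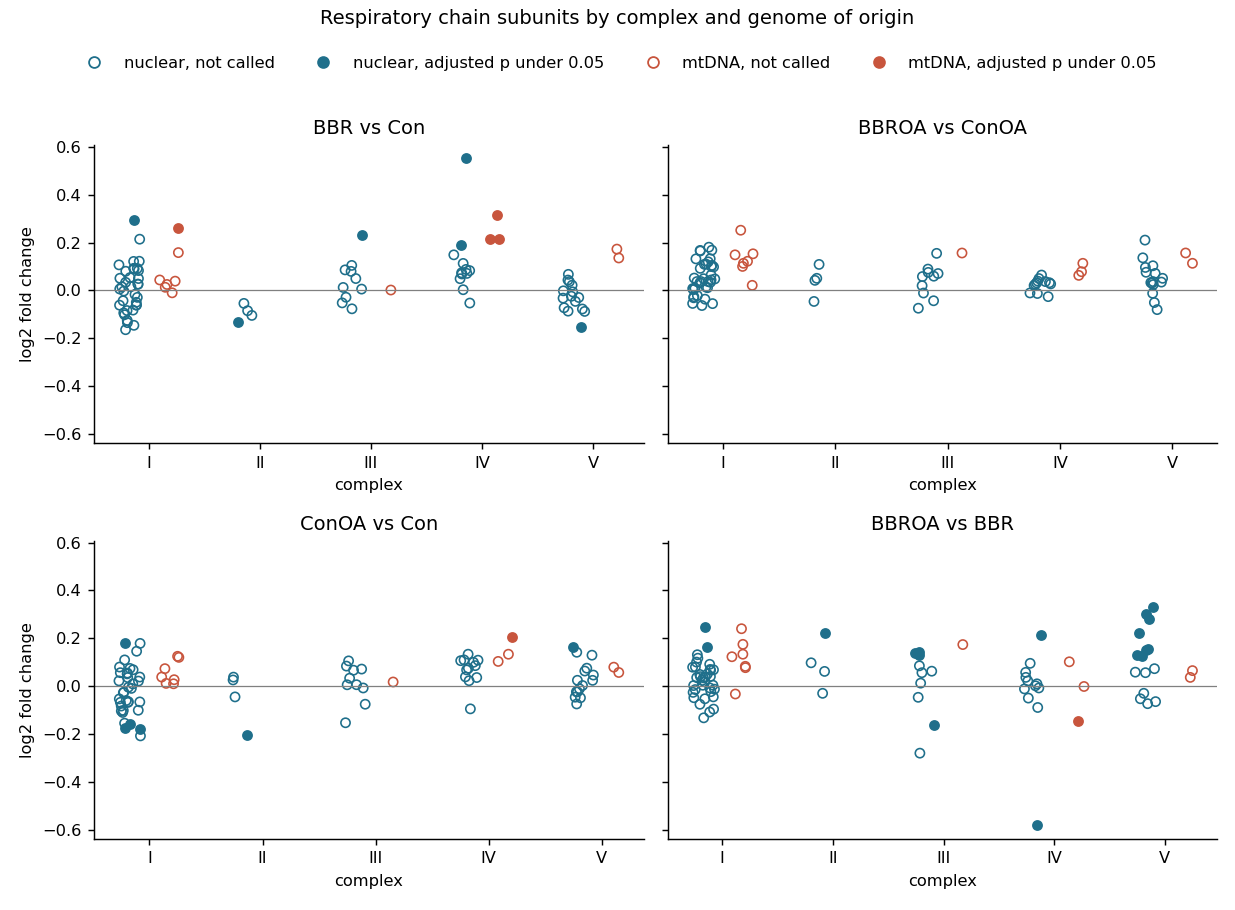
Log2 fold change of each tested nuclear (blue) and mtDNA (red) subunit by complex in the 4 comparisons of groups, 3 libraries per group, with filled symbols for an adjusted p under 0.05; Cox7a2l, Atp5s and Atp5sl are left out. Most points lie within 0.2 of 0, and the filled points gather in complex IV for BBR vs Con and in complex V for BBROA vs BBR.

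With OA present, no subunit passed the test for an effect of BBR, although some alternative settings gave calls. In BBROA vs ConOA none of the 92 members was called, where 4.59% of all 12278 genes were called, 1.95% higher and 2.63% lower. At an unadjusted p under 0.05 there were 9 members, 7 nuclear and 2 from mtDNA, DESeq2 called none, and the lowest adjusted p among members was 0.099. The 95% intervals of 91 of the 92 members lay within 0.5 of 0 on the log2 scale, so that a change beyond this size was outside the interval for all of them except the assembled second Uqcr10 feature. All 13 mtDNA values were above 0, from 0.02 to 0.25, as were those of 60 of 79 nuclear members. Removing a length trend from the counts gave 2 nuclear calls, and fitting without the filter on low counts gave 1 mtDNA call. Leaving out ConOA replicate 3 gave 3 nuclear calls and leaving out ConOA replicate 1 gave 1 mtDNA call.

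OA without BBR changed few subunits, and by small amounts. Of the 35 nuclear features of complex I 3 were lower and 1 higher, and of the 4 of complex II only Sdha was called, lower. In ConOA vs Con 8 of 92 members were called, 8.70%, against 42.8% of all 12418 genes, where 21.3% were higher and 21.5% lower. Of the 79 nuclear members 2 were higher and 5 lower, and of the 13 mtDNA members 1 was higher. Sdha was at 288, 293 and 303 CPM in Con and 256, 247 and 261 CPM in ConOA, without overlap, for a log2 change of -0.20 ± 0.05 (SE; adjusted p = 0.0033). Ndufv1, which binds NADH in complex I, fell by 0.16 (adjusted p = 0.027) and Ndufa6, whose libraries overlapped, by 0.17 (adjusted p = 0.049). Atp5sl, which is not a subunit, was called lower at -0.45. Ndufb6 of the membrane arm of the same complex rose by 0.18 (adjusted p = 0.044), and Atp5g1, another gene for the c subunit, by 0.16 (adjusted p = 0.036). mt-Co3 rose by 0.20 (adjusted p = 0.024), while its libraries overlapped between the groups. The part in these calls of the hepatocyte, Kupffer cell, muscle and other markers called in ConOA vs Con was not tested. Without Con replicate 1, Con replicate 2, ConOA replicate 1 or ConOA replicate 2 the nuclear calls fell to 4, and without Con replicate 3 they were 12. The mtDNA calls were 0 without Con replicate 1, Con replicate 2 or ConOA replicate 1, and 3 without Con replicate 3 or ConOA replicate 2. Upper quartile scaling gave 0 nuclear calls higher and 8 lower.

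When OA was added to BBR, 8 of the 15 nuclear subunits of ATP synthase rose. In BBROA vs BBR 20 of 92 members were called, 21.7%, against 38.9% of all 12416 genes, where 20.1% were higher and 18.8% lower. Of the nuclear members 15 were higher and 4 lower, and of the mtDNA members only mt-Co1 was called, lower by 0.14 (SE 0.05; adjusted p = 0.032). No nuclear subunit of complex V was called lower, so that 53.3% of them were called higher. They were the catalytic subunits Atp5b and Atp5a1 (0.13 and 0.15 on the log2 scale), Atp5d and Atp5e of the central stalk (0.13 and 0.30), Atp5f1 of the stator (0.16), Atp5k of the dimer interface (0.22) and the c subunit genes Atp5g1 and Atp5g3 (0.33 and 0.28), with adjusted p from 3.8e-04 to 0.049. This count was 4 without BBROA replicate 2 and 5 without BBROA replicate 3, and it was 5 with upper quartile scaling, which divided the nuclear calls into 8 higher and 7 lower. Over all nuclear members the calls numbered 11 without BBROA replicate 2 and 12 without BBROA replicate 3. The part of the hepatocyte, Kupffer cell, cholangiocyte, endothelial and muscle markers that were called in the same comparison was not tested. The single mtDNA call became 7 without BBR replicate 1, 3 without BBROA replicate 3, and 0 without BBR replicate 2, BBR replicate 3, BBROA replicate 1 or BBROA replicate 2.

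Outside complex V the rises were scattered over the chain. Sdhd, the membrane anchor of complex II, was at 132, 133 and 132 CPM in BBR and 151, 148 and 163 CPM in BBROA, without overlap (0.22 ± 0.04, SE; adjusted p = 0.0012). Cox5a of complex IV was at 64.8, 66.8 and 60.6 CPM in BBR and 74.9, 73.3 and 74.9 CPM in BBROA (0.21 ± 0.05; adjusted p = 0.0031). In complex III, Cyc1, Uqcrfs1 and Uqcr10 rose by 0.13, 0.14 and 0.15, and in complex I Ndufb6 and Ndufa2 by 0.25 and 0.16. The libraries of Uqcrfs1, the Rieske iron-sulphur protein, overlapped between the groups and its adjusted p was 0.048.

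The 5 members that fell when OA was added to BBR included 3 that BBR had raised, Ndufa4l2, Uqcrh and mt-Co1. Ndufa4l2 fell by 0.58 ± 0.06 (log2, SE; adjusted p = 5.4e-06), or 33.1%, to a level that overlapped Con and ConOA. Uqcrh fell by 0.16 (adjusted p = 0.020) and Cox7a2l by 0.19 (adjusted p = 0.0024). BBR libraries stand in both comparisons, so a high value in them enters the rise from Con and the fall to BBROA alike. Atp5sl, matched by symbol only and known as an assembly factor of complex I, was at 18.2, 18.8 and 15.7 CPM in Con, 12.1, 11.0 and 14.9 CPM in ConOA, 16.4, 17.7 and 15.2 CPM in BBR and 11.9 ± 0.126 CPM in BBROA (SD, n = 3). Both groups with OA were below both groups without it, by 0.45 in ConOA vs Con (adjusted p = 0.0041) and 0.46 in BBROA vs BBR (adjusted p = 6.5e-04).

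**Figure D3:**
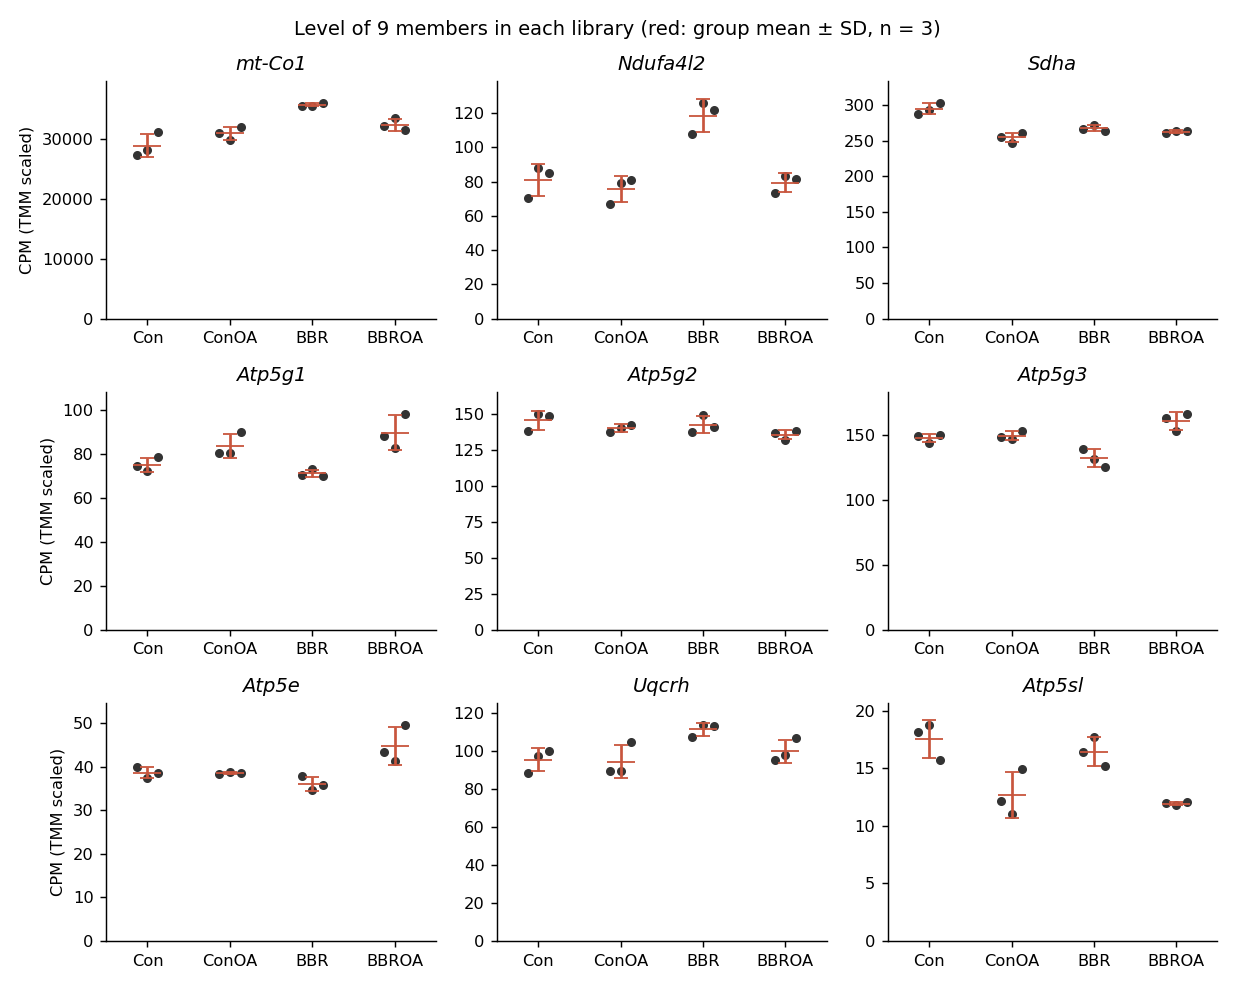
Level in CPM, scaled by the TMM method, of 9 members in each of the 12 libraries (dots), with the group mean ± SD (red, n = 3) and every axis starting at 0. Ndufa4l2 and mt-Co1 are highest in the 3 BBR libraries, Atp5g1, Atp5g3 and Atp5e are highest on average in BBROA while Atp5g2 is not, and Atp5sl is lower in ConOA and BBROA than in Con and BBR.

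The genes for the c subunit differed among themselves. Atp5g1, Atp5g2 and Atp5g3 encode the same mature protein, the subunit of the rotating ring, and differ in the peptide that directs it to mitochondria. Atp5g1 was at 70.6, 73.1 and 70.0 CPM in BBR and 88.3, 82.7 and 98.3 CPM in BBROA, a rise of 0.33 ± 0.06 (log2, SE; adjusted p = 4.1e-04). Atp5g3 was at 139, 132 and 126 CPM in BBR and 164, 153 and 167 CPM in BBROA, a rise of 0.28 ± 0.05 (adjusted p = 3.8e-04). For both genes every BBROA library was above every BBR library. Atp5g2 was at 138, 149 and 141 CPM in BBR and 137, 132 and 138 CPM in BBROA, groups that overlapped, with a log2 difference of -0.07 and a 95% interval from -0.17 to 0.02. That interval did not overlap those of Atp5g1, from 0.21 to 0.46, and Atp5g3, from 0.18 to 0.39, although the difference between the genes was not itself tested. In FPKM the 3 genes stood at 121, 202 and 209 in Con.

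The promoters of these 3 genes are shown, since members that code for the same protein moved differently. Each window runs from 250 bases before to 50 bases after the RefSeq start site in GRCm38.p6, read 5′ to 3′ on the gene's own minus strand. Capitals mark matches to any of 4 motifs searched on both strands: GCGCATGCG of NRF1, TCAAGGTCA of the oestrogen-related receptors, AAGATGGCG of YY1 and CCGGAAGT of the ETS family. The windows lie at chr11:96075582-96075881 for Atp5g1, chr15:102670998-102671297 for Atp5g2 and chr2:73911277-73911576 for Atp5g3. That of Atp5g2 lies wholly inside the GENCODE gene, whose 5′ end is at 102672352, so it belongs to an internal start site.
Atp5g1: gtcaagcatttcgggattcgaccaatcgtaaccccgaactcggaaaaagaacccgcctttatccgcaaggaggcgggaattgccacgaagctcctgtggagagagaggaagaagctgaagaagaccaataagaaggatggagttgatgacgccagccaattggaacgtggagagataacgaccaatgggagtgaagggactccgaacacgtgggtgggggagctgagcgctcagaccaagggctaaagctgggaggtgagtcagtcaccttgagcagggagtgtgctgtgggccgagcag
Atp5g2: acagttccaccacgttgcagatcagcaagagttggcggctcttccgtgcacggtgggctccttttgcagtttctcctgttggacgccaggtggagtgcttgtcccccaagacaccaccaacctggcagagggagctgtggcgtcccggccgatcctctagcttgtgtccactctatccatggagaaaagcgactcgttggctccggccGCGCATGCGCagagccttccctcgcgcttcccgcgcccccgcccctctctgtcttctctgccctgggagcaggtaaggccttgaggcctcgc
Atp5g3: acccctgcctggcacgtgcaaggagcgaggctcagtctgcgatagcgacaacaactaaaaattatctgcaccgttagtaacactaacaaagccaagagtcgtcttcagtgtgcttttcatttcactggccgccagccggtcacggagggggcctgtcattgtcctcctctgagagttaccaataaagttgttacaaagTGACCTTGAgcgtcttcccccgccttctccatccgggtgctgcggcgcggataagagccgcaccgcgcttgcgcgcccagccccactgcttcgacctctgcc
The Atp5g1 window held none of the 4 motifs, that of Atp5g2 held the NRF1 motif on both strands, where the 2 matches overlap, and that of Atp5g3 held the receptor motif on the opposite strand. NRF1 and the oestrogen-related receptors are transcription factors known to bind promoters of respiratory chain genes. A match is a description of the letters and not of binding.

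Over the chain as a whole these motifs were more frequent than in the table of promoters at large. That table was not limited to genes expressed in these cells, and a comparison with expressed genes alone was not made. Of the nuclear subunits, 66 were found in the RefSeq table under the symbol used in the files and 17 were not. A window with at least 1 of the 4 motifs was found for 21 of the 66, or 31.8%, and for 7.93% of all 27025 genes in the table. The NRF1 motif was present for 12.1% of the subunits and 1.95% of all genes, the YY1 motif for 10.6% and 1.64%, the ETS motif for 7.58% and 4.31%, and the receptor motif for 3.03% and 0.466%. In complex V 7 of 13 genes had a motif and in complex I 8 of 31. Motifs in complex V did not go with the calls in BBROA vs BBR. Of its genes called higher there, Atp5k and Atp5g3 had a motif. Atp5b, Atp5d, Atp5g1 and Atp5e, whose rise was 0.30, had none, and Atp5a1 and Atp5f1 had no window. Among those not called, Atp5g2, Atp5h, Atp5j, Atp5j2 and Atp5l had a motif, and Atp5c1 and Atp5o had none.

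In the main fit the response to BBR differed with OA for 5 members. A test of the difference itself, (BBROA vs ConOA) minus (BBR vs Con), fitted over all 12 libraries, called 4 of 80 nuclear and 1 of 13 mtDNA members, 5.38% in all, against 12.2% of all 12742 genes, where 6.87% were higher and 5.31% lower. Ndufa4l2 had a difference of -0.48 (log2, SE 0.12; adjusted p = 0.011) and mt-Co1 of -0.24 (SE 0.07; adjusted p = 0.037), so their rise under BBR was smaller with OA. Atp5g3, Atp5e and Sdha had differences of 0.27, 0.31 and 0.18 (adjusted p = 0.013, 0.031 and 0.041). Of 19 alternatives, 14 lost the call of Sdha, among them RLE, upper quartile or nuclear gene scaling and no filter on low counts. The call of Atp5e was lost under 9, DESeq2 among them, that of mt-Co1 under 7 and that of Atp5g3 under 3. Sdha was at 267, 273 and 264 CPM in BBR and 261, 264 and 264 CPM in BBROA, below Con in all 6 libraries. Atp5e was at 39.8, 37.4 and 38.6 CPM in Con, 38.2, 38.7 and 38.5 CPM in ConOA, 37.9, 34.7 and 35.7 CPM in BBR and 43.4, 41.2 and 49.6 CPM in BBROA, where all 3 libraries lay above the rest. The nuclear calls were 2 without ConOA replicate 1, BBR replicate 2 or BBR replicate 3, and 1 without ConOA replicate 2, BBROA replicate 1 or BBROA replicate 3. The call of mt-Co1 was lost without Con replicate 1, Con replicate 2, ConOA replicate 1, ConOA replicate 3, BBR replicate 2, BBR replicate 3 or BBROA replicate 3.

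Across the 4 comparisons of groups the typical change of a chain member was small. Of the 92 members tested 63 were called in none, 20 in 1 and 9 in 2 of them. The median size of the log2 value was 0.075 for members and 0.142 for all genes in BBR vs Con, 0.053 and 0.094 in BBROA vs ConOA, 0.068 and 0.197 in ConOA vs Con, and 0.070 and 0.175 in BBROA vs BBR. The median 95% interval of members reached 0.121, 0.124, 0.138 and 0.111 to either side in these comparisons. That of all genes was wider, at 0.161, 0.167, 0.167 and 0.161. Error of the fit adds to the size of a value, and the 2 sets were not matched for abundance. The medians therefore do not separate smaller changes of members from smaller error.

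**Figure D4:**
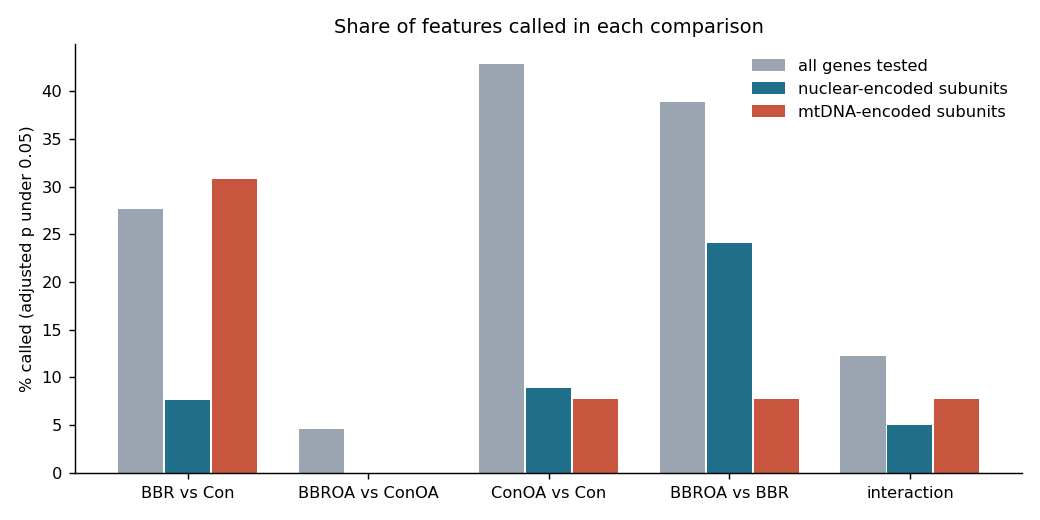
Percentage of all genes tested (grey), nuclear-encoded subunits (blue) and mtDNA-encoded subunits (red) called at an adjusted p under 0.05 in each comparison and in the interaction of BBR and OA. Only for mtDNA subunits in BBR vs Con, with 4 of 13 called, does a coloured bar reach the grey one.

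By summed counts, the balance of the 2 genomes lay further towards mtDNA in all 3 BBR libraries than in any Con library. mtDNA subunits held 5.76 ± 0.29% of counts in Con, 5.996 ± 0.334% in ConOA, 6.62 ± 0.27% in BBR and 6.41 ± 0.27% in BBROA (SD, n = 3), and nuclear subunits 0.825 ± 0.023%, 0.813 ± 0.027%, 0.818 ± 0.0047% and 0.838 ± 0.014%. All 3 BBR libraries had a larger mtDNA share than any Con library. The log2 ratio of nuclear to mtDNA counts was -2.80 ± 0.05 in Con, -2.88 ± 0.08 in ConOA, -3.02 ± 0.06 in BBR and -2.93 ± 0.09 in BBROA. These shares have no test of their own. mt-Co1 alone held 2.92 ± 0.17% of all counts in Con, 3.06 ± 0.09% in ConOA, 3.59 ± 0.02% in BBR and 3.21 ± 0.09% in BBROA. As the mean of log2 FPKM over genes, in which every member weighs the same, the difference of the ratio between BBR and Con shrank from -0.21 to -0.092.

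Genes that build and express the chain were set beside its subunits. Of 49 assembly factors, which fold cofactors and subunits into the complexes, none was higher and 11 were lower in BBR vs Con, and 11 were higher and none lower in BBROA vs BBR, with 4 higher and 7 lower in ConOA vs Con and none called in BBROA vs ConOA. Among the called factors, the largest log2 changes within each comparison were those of Ndufaf3 (-0.52) and Sdhaf4 (-0.41) in BBR vs Con, Ndufaf4 (0.57) and Uqcc3 (-0.44) in ConOA vs Con, and Ndufaf4 (0.54) and Cox10 (0.37) in BBROA vs BBR. Of 78 mitochondrial ribosomal proteins, which translate the mtDNA mRNAs, 2 were higher and 9 lower in BBR vs Con, 15 and 1 in ConOA vs Con, 20 and 1 in BBROA vs BBR and 0 and 1 in BBROA vs ConOA. Of 80 cytosolic ribosomal proteins, none was higher and 2 were lower in BBR vs Con, 5 were higher and none lower in ConOA vs Con, 8 and 2 in BBROA vs BBR and none in BBROA vs ConOA. Of 44 genes of mtDNA replication and expression, 3 were higher and 8 lower in BBR vs Con, 9 and 3 in ConOA vs Con, 10 and 2 in BBROA vs BBR and 0 and 2 in BBROA vs ConOA. Beside the percentages of all genes given above, these are counts without a test of the lists, and the medians of the assembly factors were -0.11 in BBR vs Con and 0.09 in BBROA vs BBR against 0.00 and -0.01 over all genes.

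In BBR vs Con the regulators and the genes of electron entry had the largest shares of calls among the 8 lists, 7 of 17 and 13 of 26. The share of all genes called, against which these and the following counts stand, was 27.7% in BBR vs Con, 42.8% in ConOA vs Con, 38.9% in BBROA vs BBR and 4.59% in BBROA vs ConOA. Of 17 tested regulators of mitochondrial biogenesis and metabolism, 7 were lower and none higher under BBR, with the coactivator gene Ppargc1b at -0.95 ± 0.26 (log2, SE; adjusted p = 0.011) and the deacetylase gene Sirt3 at -0.47 ± 0.12 (adjusted p = 0.0093). Ppargc1b lay at only 1.9 CPM in Con and 1.0 CPM in BBR. In ConOA vs Con 6 of the 17 were higher and 3 lower, in BBROA vs BBR 6 and 3, and in BBROA vs ConOA 0 and 1. Of 26 tested genes of electron entry and carriers, 3 were higher and 10 lower in BBR vs Con, 6 and 6 in ConOA vs Con, 11 and 3 in BBROA vs BBR and 4 and 1 in BBROA vs ConOA. This list was broader than its name, since it was drawn up with Aox1, Ndufab1, Atpif1, Slc25a4, Slc25a5 and the Ucp genes in it. Coq8a, a kinase-like protein needed for coenzyme Q synthesis, fell by 1.21 under BBR and by 1.63 under OA. Etfdh, which passes electrons from fatty acid oxidation to coenzyme Q, rose by 0.73 ± 0.05 in BBROA vs BBR (adjusted p = 4.4e-08). Of the 14 citric acid cycle genes 2 were higher and 2 lower in BBR vs Con and 4 and 2 in ConOA vs Con, shares of 28.6% and 42.9% that lie at those of all genes, with 7 and 1 in BBROA vs BBR and none in BBROA vs ConOA. Of 16 mitochondrial stress genes 1 was higher and 4 lower in BBR vs Con, 8 and 3 in ConOA vs Con, 9 and 1 in BBROA vs BBR and none in BBROA vs ConOA.

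**Figure D5:**
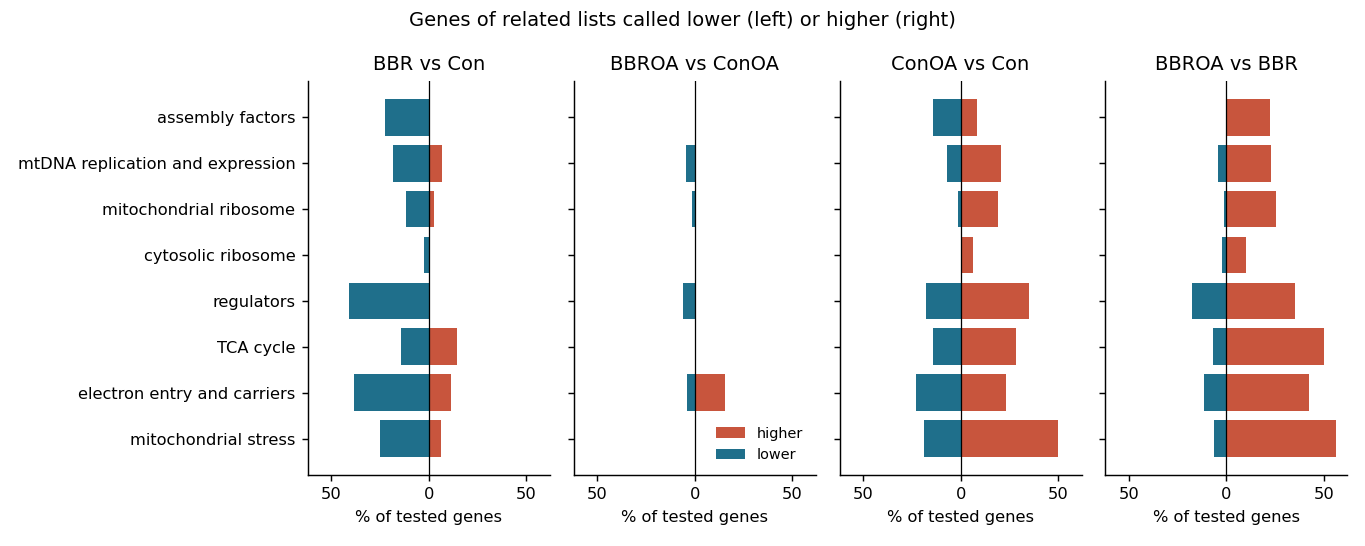
Percentage of the tested genes of 8 related lists called lower (blue, to the left) or higher (red, to the right) at an adjusted p under 0.05 in the 4 comparisons of groups. Assembly factors, cytosolic ribosome and regulators have calls to the left alone in BBR vs Con, every list has more calls to the right in BBROA vs BBR, and few genes are called in BBROA vs ConOA.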

How the data were processed

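Primary mouse hepatocytes of 4 groups with 3 libraries each were profiled by poly(A) RNA sequencing on an Illumina instrument, at 15485498 to 23668371 counts per library. The authors deposited, for each library and gene, an estimated count, which need not be whole, and an FPKM value, scaled by transcript length and library size. The submitters' processing notes name the build mm10, and the aligner, counting tool and strand setting are not given in the sources used here.

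Groups were taken from the sample labels. The estimated counts were rounded (2862 of 22471 features had a fractional value, 15 of them members) and tested with edgeR 4.0.16 in R 4.3.3: TMM scaling, filterByExpr with a minimum count of 10, glmQLFit and glmQLFTest, with Benjamini-Hochberg adjustment over all genes tested. Each comparison used the 6 libraries of its 2 groups, and the interaction used all 12. Calls are an adjusted p under 0.05. CPM values carry TMM scaling (factors 0.983 to 1.02). Levels of single genes were ranked in FPKM, while shares of counts and ratios between genes within a library carry no length scaling unless FPKM is named. Coordinates are from GENCODE vM21, promoters from RefSeq (GRCm38.p6).

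The members and lists were chosen with earlier results of these data known. Planned for naming were, per comparison, up to 3 nuclear members with the largest rises and 3 with the largest falls among those called with at least 5 CPM. The plan also held all 13 mtDNA genes, 12 reference subunits, the isoform pairs and the largest called changes of a list. Not all of these are printed. The full set of mtDNA values is given in the text for BBR vs Con alone, and only some reference subunits are given. Other called members, such as all 8 of complex V, were named after their values were seen. The cytosolic ribosome list leaves out the Rps6k kinases and Rps19bp1. Alternatives were RLE and upper quartile scaling, scaling by nuclear genes, no filter, DESeq2 1.42.0, all 12 libraries in 1 fit, the replicate number as a block, removal of a length trend, each library left out, and an adjusted p under 0.01. Ensembl mtDNA rRNA and tRNA genes were not analysed here. The floor of 3 counts covers counting error only, and the 95% intervals come from the edgeR fits and include the spread between libraries. The values of 1 member are not reported here.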

Additional observations from a re-analysis of the deposited data

Results flagged for a closer look

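The effect of BBR differed between cells without and with OA, by the interaction term over all 12 libraries (edgeR, adjusted over 12742 genes), for 5 subunits. Ndufa4l2 had a log2 difference of -0.48 (SE 0.12; adjusted p = 0.011), with a BBR value of 0.55 without OA and 0.06 with it. mt-Co1 had a difference of -0.24 (SE 0.07; adjusted p = 0.037), with 0.31 and 0.06. Atp5g3 had a difference of 0.27 (SE 0.07; adjusted p = 0.013), with -0.15 and 0.10, and Atp5e of 0.31 (SE 0.09; adjusted p = 0.031). Sdha had a difference of 0.18 (SE 0.06; adjusted p = 0.041), with -0.13 and 0.04. Of these, only Ndufa4l2 kept its call under all 19 alternatives tried for the interaction. Groups of 3 libraries were not searched for single outlying libraries.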

How the results depend on the processing

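Of 38 called values of members in the 4 comparisons of groups, 17 kept their call under every alternative and none changed direction. In BBR vs Con these were Ndufa4l2, mt-Co1, mt-Nd1, Ndufv3 and Uqcrh. At an adjusted p under 0.01 the calls fell to 3 nuclear and 2 mtDNA members in BBR vs Con, 2 and 0 in ConOA vs Con, 11 (5 of complex V) and 0 in BBROA vs BBR, and 0 and 0 in the interaction. Without the filter the mtDNA calls were 7 in BBR vs Con, 1 in BBROA vs ConOA and 4 in BBROA vs BBR. DESeq2 called 4 nuclear members in ConOA vs Con. Upper quartile scaling called 0 mtDNA members in ConOA vs Con and 5 of complex V in BBROA vs BBR. Removing the length trend gave 2 nuclear calls in BBROA vs ConOA. Leaving out 1 library at a time, nuclear and mtDNA calls ranged from 3 to 11 and 2 to 6 in BBR vs Con, 0 to 3 and 0 to 1 in BBROA vs ConOA, 4 to 12 and 0 to 3 in ConOA vs Con, 11 to 18 and 0 to 7 in BBROA vs BBR (complex V 4 to 8) and 1 to 6 and 0 to 1 in the interaction. The complex V count and its alternatives were chosen after seeing the data.

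The labels give all groups the replicate numbers 1 to 3. Deviations of libraries with the same number correlated by 0.0234 to 0.155, all above 0 but over 0.1 in only 2 of 12 pairs. Most correlations between different numbers were below 0. Each library of the first-named group correlated best with its own number, except BBROA replicate 2. That library was at 0.039 with ConOA replicate 2 and 0.057 with ConOA replicate 3. The libraries thus shared a weak pattern by number. What the numbers stand for is not stated, and they were not taken as pairs in the main fit. With the replicate number as a block, mtDNA calls were 7 in BBR vs Con (4 in the main fit) and 4 in BBROA vs ConOA (0). They were 5 in ConOA vs Con (1), 6 in BBROA vs BBR (1) and 3 in the interaction (1). Nuclear calls with the block were 3 in BBROA vs ConOA (0 in the main fit), 18 in ConOA vs Con (7) and 7 in the interaction (4).

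The log2 difference in mtDNA share between BBR and Con was 0.20, 0.025 as a share of members alone and 0.11 without the 10 most abundant features. The share of members was already 87.5% in Con and 89.0% in BBR, so it could move little. For BBROA vs ConOA it was 0.096, and 0.0062 as a share of members, and for BBROA vs BBR -0.048, and 0.057 without the 10 features. As mean log2 FPKM the nuclear to mtDNA ratio differed by -0.092 in BBR vs Con and -0.058 in BBROA vs BBR.

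Uncalled mtDNA values near 0 changed sign. In BBR vs Con, mt-Nd4 became 0.020 and mt-Nd4l -0.022 without the length trend, and mt-Cytb -0.0052 with all 12 libraries and -0.0027 with the block. In ConOA vs Con, upper quartile scaling gave mt-Nd3 -0.019, mt-Nd4 -0.036, mt-Nd5 -0.0079, mt-Cytb -0.029 and mt-Nd4l -0.035, and removing the length trend gave mt-Nd3 -0.020 and mt-Nd4l -0.040. In BBROA vs BBR, mt-Co2 was 4.8e-05 with RLE scaling, 4.4e-05 with DESeq2, 0.0035 without the filter and 0.00058 with all 12 libraries, and mt-Atp6 -0.0049 with upper quartile scaling. The interaction of mt-Atp8 was 0.053 without the length trend. Leaving out 1 library at a time gave these ranges. In BBR vs Con, mt-Nd3 from -0.073 to 0.13, mt-Nd4 from -0.097 to 0.066, mt-Nd5 from -0.025 to 0.12, mt-Nd6 from -0.079 to 0.094, mt-Cytb from -0.079 to 0.087 and mt-Nd4l from -0.088 to 0.15. In BBROA vs ConOA, mt-Nd6 from -0.076 to 0.091. In ConOA vs Con, mt-Nd3 from -0.050 to 0.11, mt-Nd4 from -0.082 to 0.093, mt-Nd5 from -0.034 to 0.11, mt-Cytb from -0.081 to 0.11 and mt-Nd4l from -0.14 to 0.089. In BBROA vs BBR, mt-Nd1 from -0.069 to 0.02, mt-Co2 from -0.033 to 0.039 and mt-Atp8 from -0.019 to 0.15. In the interaction, mt-Nd2 from -0.13 to 0.056, mt-Atp8 from -0.092 to 0.059, mt-Atp6 from -0.10 to 0.033 and mt-Nd6 from -0.10 to 0.11.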
